A study of Mus musculus with 5 samples.

Results

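The 10 genes described here encode enzymes that methylate lysine 9 of histone H3, and proteins that bring one of these enzymes, SETDB1, to its targets. They are Setdb1, Setdb2, Suv39h1, Suv39h2, Ehmt1 and Ehmt2, the methyltransferases, and Trim28, Atf7ip, Mphosph8 and Morc2a, the partners. They were chosen by symbol, and each of the 10 matched 1 row among the 54699 genes of the deposited table. Levels are FPKM, the reads of a gene per kilobase of its length after scaling for library size. All 10 had an FPKM of 1 or more in some library, as did 12842 genes in all, and these are called the genes compared.

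RNA was sequenced from B16F10, a pigmented mouse melanoma line, in 5 lentivirus-infected cultures with 1 library each. Cells with forced expression of mouse Myod1, cells with forced expression of mouse Pparg and wild-type cells carrying the empty expression vector were grown for 8 days. Cells with a short hairpin RNA against Setdb1 and wild-type cells carrying the empty knockdown vector were grown for 7 days. The collection day was that on which the changed cells showed an altered phenotype. The labels give no promoter for the vectors, no hairpin sequence and no statement of whether a culture was 1 clone. The Myod1 and Pparg comparisons share 1 control library. With 1 library per group there is no error between samples and no test between conditions. The intervals below are 95% intervals for read counting alone.

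Methylation of histone H3 at lysine 9 marks silent chromatin. SETDB1 adds this mark at retroelements and at single genes, where TRIM28 brings it through zinc finger proteins and where the HUSH complex, with MPHOSPH8 as its reader of the mark, extends it. ATF7IP keeps SETDB1 in the nucleus and protects it from breakdown, and MORC2A is an ATPase that works with HUSH. SUV39H1 and SUV39H2 methylate the heterochromatin around centromeres, and EHMT1 and EHMT2 act as a pair in euchromatin. In melanoma, SETDB1 is known as an amplified oncogene.

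The libraries held between 16214802 and 18300670 reads assigned to genes. All 8 melanocyte markers examined had reads in every library, with a summed FPKM of 3306 with Myod1 and 2308 with Pparg against 7816 in their control, and 9098 with Setdb1 knockdown against 8542 in its control. With the knockdown 5 of the 8 had log2 ratios of FPKM + 1 below 0 (median -0.21). Mitf (-1.54, and -1.02 against the other control) and Slc45a2 (-1.49 and -1.04) were at least 2-fold lower against both controls. Of the genes compared 7.56% were. The 5 immune cell markers had a summed FPKM of at most 0.465, and Cd3e was listed at 0 in all 5 libraries. The 6 fibroblast markers summed to at most 2.52. The muscle markers, 6 in number, summed to 30509 with Myod1 expression and to at most 19.5 elsewhere, and the 6 adipocyte markers to 319.7 with Pparg expression and to at most 2.63 elsewhere. In bulk RNA, fewer cells of a kind and less RNA per cell cannot be told apart.

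Setdb1 was the target of the hairpin and is given first. The gene (ENSMUSG00000015697) lies on the minus strand of chromosome 3, 95323525 to 95357202 (GRCm38). Its FPKM was 0.867 in the knockdown library, from 110 reads, and 9.82 in the empty knockdown vector library, from 1125 reads. The other 3 libraries held 10.3 with the empty expression vector, 8.41 with Myod1 and 15.2 with Pparg. The knockdown library stood far under all others, the 2 controls had overlapping intervals, and the Pparg library stood highest. The knockdown library kept 8.83% of its control's FPKM (7.20% to 10.8%), a log2 ratio of FPKM + 1 of -2.53. A log2 ratio this low or lower was found for 0.405% of the genes compared. The ratio was -2.60 against the other control. It moved to -3.36 with a pseudocount of 0.1 in place of 1.

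Pparg expression went with more Setdb1 transcript, not less. The FPKM ratio was 1.47 (1.36 to 1.58) against its own control and 1.54 (1.43 to 1.66) against the other one, and the log2 ratio of 0.51 did not reach the 2-fold limit. Among the genes compared 12.9% had a log2 ratio as high or higher. With Myod1 expression the FPKM ratio was 0.813 (0.744 to 0.887), a log2 ratio of -0.27.

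**Figure D1:**
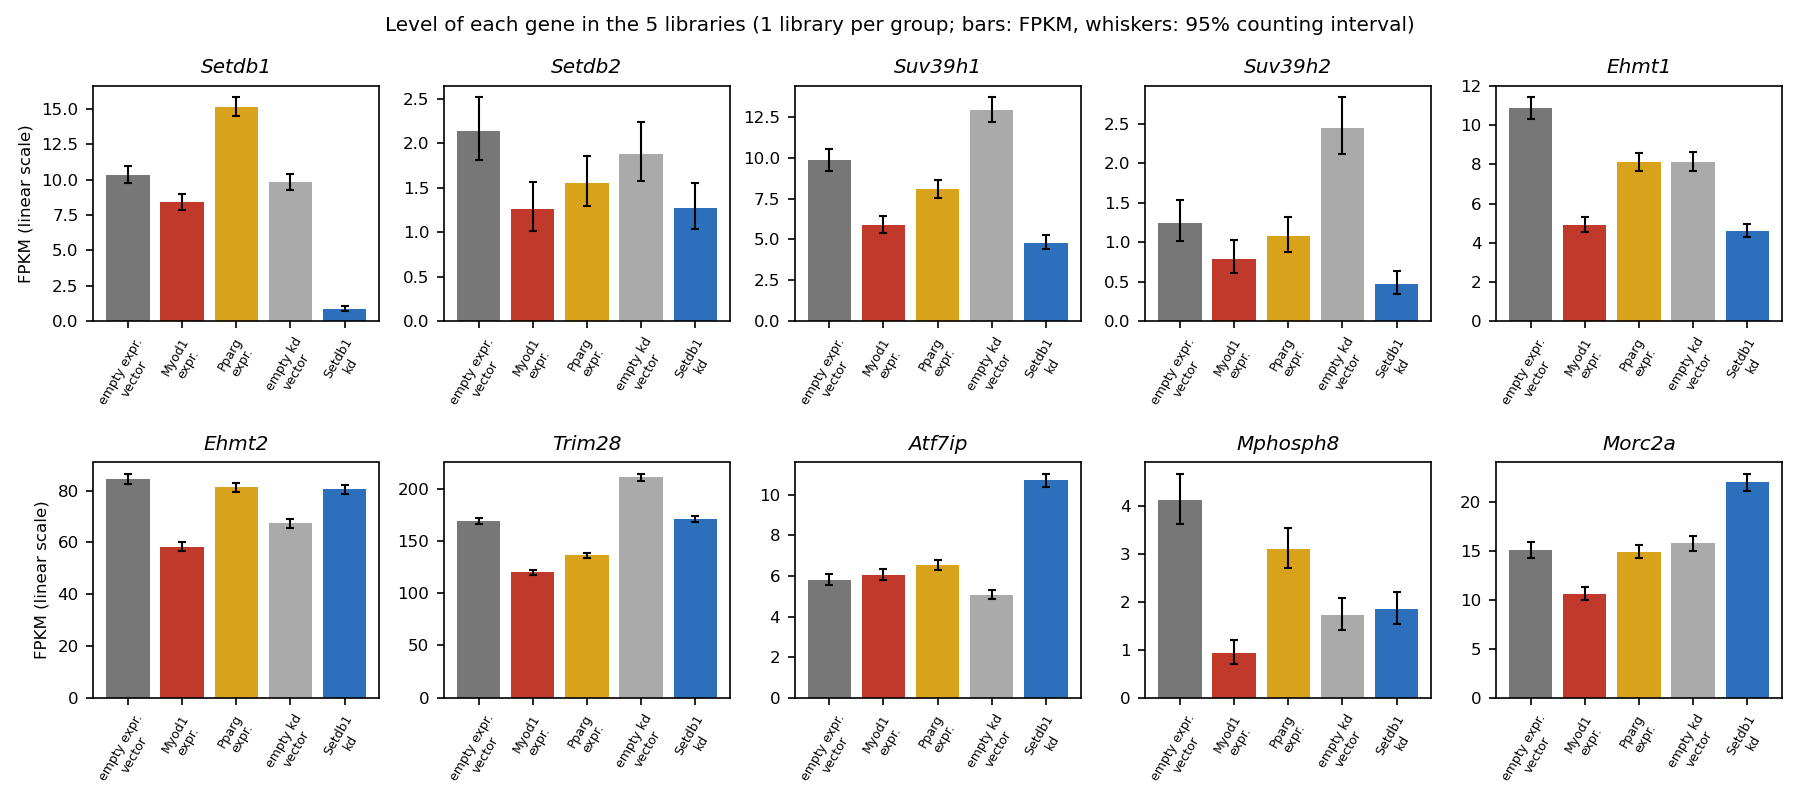
FPKM (linear axis starting at 0, own scale per panel) of each of the 10 genes in the 5 libraries, with bars for the value of the single library of each group and whiskers for the 95% counting interval. Setdb1 is at 0.867 in the knockdown library against 8.41 to 15.2 in the others, and Atf7ip and Morc2a stand highest in that same library.

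Across the 5 libraries the other genes did not all follow Setdb1. The lowest value of a gene fell in the Myod1 library for 5 genes (Setdb2, Ehmt2, Trim28, Mphosph8 and Morc2a), in the Setdb1 knockdown library for 4 (Setdb1, Suv39h1, Suv39h2 and Ehmt1) and in the empty knockdown vector library for Atf7ip. The 2 genes with their highest value in the knockdown library were Atf7ip and Morc2a. The ratio of highest to lowest FPKM was 17.5 for Setdb1, 5.27 for Suv39h2 and 4.46 for Mphosph8, and lay between 1.45 (Ehmt2) and 2.69 (Suv39h1) for the other 7.

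Setdb1 knockdown was compared with the empty knockdown vector. At the 2-fold limit, a log2 ratio of at least 1 in size, 3 of the 10 genes were lower (Setdb1, Suv39h1 and Suv39h2) and 0 higher, where 19.7% of the genes compared passed the limit, 10.3% lower and 9.34% higher. Setdb1 itself was the target. That leaves 2 of the other 9 genes, a share near that of all genes. The median log2 ratio of the 10 genes was -0.32 and that of the genes compared 0.00. By log2 ratio of FPKM + 1, Setdb1 was the 1 gene of the 10 lower past the limit against both controls. Of the genes compared 7.56% were. The FPKM ratios without a pseudocount, against the own and the other control, were 0.371 and 0.488 for Suv39h1 and 0.190 and 0.373 for Suv39h2. Each of these is past 2-fold, while the log2 ratios of FPKM + 1 against the other control are not.

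Suv39h1 and Suv39h2 make the enzymes of pericentric heterochromatin and had the most alike profiles of any pair among the 10 genes, with a root mean square difference of 0.12 between their centred log2 values of FPKM + 1 over the 5 libraries. That scale compresses low values such as those of Suv39h2. The FPKM ratio of Suv39h1 to Suv39h2 was 5.27 (4.50 to 6.19) in the empty knockdown vector library and 10.3 (7.40 to 14.7) in the knockdown library. It lay between 7.39 and 7.87 in the other 3 libraries. Suv39h1 (ENSMUSG00000039231) lies on chromosome X, 8061171 to 8074760, and Suv39h2 (ENSMUSG00000026646) on chromosome 2, 3455815 to 3475031, both on the minus strand. The stretches upstream of their start sites are shown because these 2 genes had lower values together in the knockdown library, and that of Atf7ip because its value was the highest there. They are RefSeq promoters of GRCm38.p6, written 5′ to 3′ on the strand of the gene. Capitals mark CCAAT boxes (CCAAT or ATTGG) and E2F-type matches (TTCCCGC or TTGGCGC, on either strand). The first base printed is base 250 before the start site, and a stretch ends where an annotated exon of a protein-coding gene begins. Morc2a too had its highest value in the knockdown library, but such exons left too short a stretch of its window to be printed. The RefSeq start used lies 12684 bases inside the deposited gene for Atf7ip and 25038 bases inside it for Trim28.
Suv39h1, chrX:8074761-8075010, minus strand: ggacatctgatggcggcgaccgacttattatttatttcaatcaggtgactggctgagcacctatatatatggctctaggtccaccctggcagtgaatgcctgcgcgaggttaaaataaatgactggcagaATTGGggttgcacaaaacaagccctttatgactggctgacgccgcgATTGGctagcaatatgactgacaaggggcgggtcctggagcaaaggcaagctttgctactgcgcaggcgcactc
Suv39h2, chr2:3475032-3475236, minus strand: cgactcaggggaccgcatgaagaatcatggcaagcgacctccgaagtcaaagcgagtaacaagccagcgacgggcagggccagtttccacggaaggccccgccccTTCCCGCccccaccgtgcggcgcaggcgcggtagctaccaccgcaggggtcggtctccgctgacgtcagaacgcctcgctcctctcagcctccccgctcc
Atf7ip, chr6:136518601-136518801, plus strand: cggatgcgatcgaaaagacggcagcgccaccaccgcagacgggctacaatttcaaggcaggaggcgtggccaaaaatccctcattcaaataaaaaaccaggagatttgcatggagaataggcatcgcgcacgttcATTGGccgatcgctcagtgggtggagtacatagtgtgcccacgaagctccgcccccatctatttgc

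The promoter table held a start site for all 10 genes, and the one nearest the deposited gene start was used. Over the 250 bases before the start, Suv39h2 held 1 E2F-type match, at base 145, and Suv39h1 held none of these letters but had CCAAT boxes at bases 120 and 74. Trim28 was the other gene with an E2F-type match, so 2 of the 10 held one, and 5.62% of the 32851 promoters in the table did. E2F factors drive genes of DNA replication. A CCAAT box was found in 6 of the 10 (Setdb1, Setdb2, Suv39h1, Atf7ip, Mphosph8 and Morc2a) and in 33.8% of all promoters. The hexamer CAGCTG, an E-box of the kind MYOD1 binds, was found in Suv39h2 alone among the 10, at base 11, beyond the printed stretch, and in 13.0% of all promoters. These matches describe the letters of the windows and are no evidence of binding.

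Suv39h1 had an FPKM of 4.80 with Setdb1 knockdown against 12.9 in the control. It had 9.83 with the empty expression vector, 5.86 with Myod1 and 8.08 with Pparg. The knockdown library was the lowest and its own control the highest, and no neighbours in this order had overlapping intervals. The knockdown FPKM ratio was 0.371 (0.333 to 0.414), a log2 ratio of -1.26, and 6.42% of the genes compared stood as low. Against the other control the log2 ratio of FPKM + 1 was -0.90, short of the limit. The FPKM ratio there, without a pseudocount, was 0.488 (0.435 to 0.547).

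Suv39h2 was scarcer, with 38 to 181 reads per library. Its FPKM was 0.466 in the Setdb1 knockdown library, 2.45 with the empty knockdown vector, 1.25 with the empty expression vector, 0.793 with Myod1 and 1.08 with Pparg. The 2 controls differed more than the treated libraries of the expression experiment did from their control: the empty knockdown vector library stood 1.96-fold above the other (1.52 to 2.56). The knockdown FPKM ratio was 0.190 (0.130 to 0.270) against its own control and 0.373 (0.248 to 0.550) against the other, with log2 ratios of -1.24 and -0.62. The direction was the same against both, and the log2 ratio of FPKM + 1 met the 2-fold limit against 1 of them. With the trend of log2 ratios on transcript GC content removed it was -0.86, also short of the limit.

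Genes of proliferation, from a list chosen with earlier results of these data known, were lower in the same library. All 22 of a list of replication and mitosis genes were at least 2-fold lower with Setdb1 knockdown against both controls, as 7.56% of the genes compared were, with a median log2 ratio of -2.23, among them Top2a (-3.36), a topoisomerase of dividing cells, and Ccna2 (-2.90), a cyclin of S phase. The summed FPKM of the list was 332.4 with the knockdown against 1613 in the control. With Myod1 expression 19 of the 22 were at least 2-fold lower, with a median of -1.38, where 7.55% of the genes compared were. With Pparg expression 1 was, with a median of -0.42, where 2.30% of the genes compared were. The part of this shift in the Suv39h1 and Suv39h2 values was not tested.

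Ehmt1 and Ehmt2 encode the subunits GLP and G9a of 1 enzyme complex. Ehmt1 (ENSMUSG00000036893, chromosome 2, 24789928 to 24919614) had an FPKM of 4.61 with Setdb1 knockdown and 8.14 in that control. It had 10.9 with the empty expression vector, 4.92 with Myod1 and 8.10 with Pparg. The Setdb1 knockdown and Myod1 libraries were the lowest and had overlapping intervals. Ehmt2 (ENSMUSG00000013787, chromosome 17, 34898469 to 34914052) had an FPKM of 80.7 with Setdb1 knockdown and 67.4 in that control. It had 84.7 with the empty expression vector, 58.4 with Myod1 and 81.4 with Pparg. For Ehmt2 the Myod1 library was the lowest, and the Setdb1 knockdown, Pparg and empty expression vector libraries lay close together.

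The FPKM ratio of Ehmt2 to Ehmt1 was 17.5 (16.2 to 18.9) with Setdb1 knockdown, against 8.28 (7.76 to 8.83) in the control. It was 7.80 (7.37 to 8.26) with the empty expression vector, 10.1 (9.47 to 10.7) with Pparg and 11.9 (10.9 to 12.9) with Myod1. The knockdown library thus had the highest ratio, and the 2 controls had overlapping intervals. The GC content of the longest transcript was 60.8% for Ehmt2 and 51.2% for Ehmt1. Across genes the log2 ratio in the knockdown comparison rose with GC content (Spearman rho 0.39 over 12679 genes, which are not independent). With this trend removed, the log2 ratio of Ehmt2 in that comparison went from 0.26 to -0.23, and it was -0.07 against the other control. The direction of Ehmt2 thus depended on the setting. Ehmt1 had log2 ratios of -0.71 and -1.08 against its own and the other control.

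Setdb2, a relative of Setdb1, was low in all libraries, with 80 to 141 reads. Its FPKM was 2.13 with the empty expression vector, 1.88 with the empty knockdown vector, 1.55 with Pparg, 1.27 with Setdb1 knockdown and 1.26 with Myod1. Each neighbour in this order overlapped the next within counting error. The log2 ratio with Setdb1 knockdown was -0.34, and 0.03 with the GC trend removed. Setdb1 exceeded Setdb2 by 5.23-fold (4.35 to 6.34) in the empty knockdown vector library, and stood at 0.684 times Setdb2 (0.515 to 0.909) in the knockdown library.

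**Figure D2:**
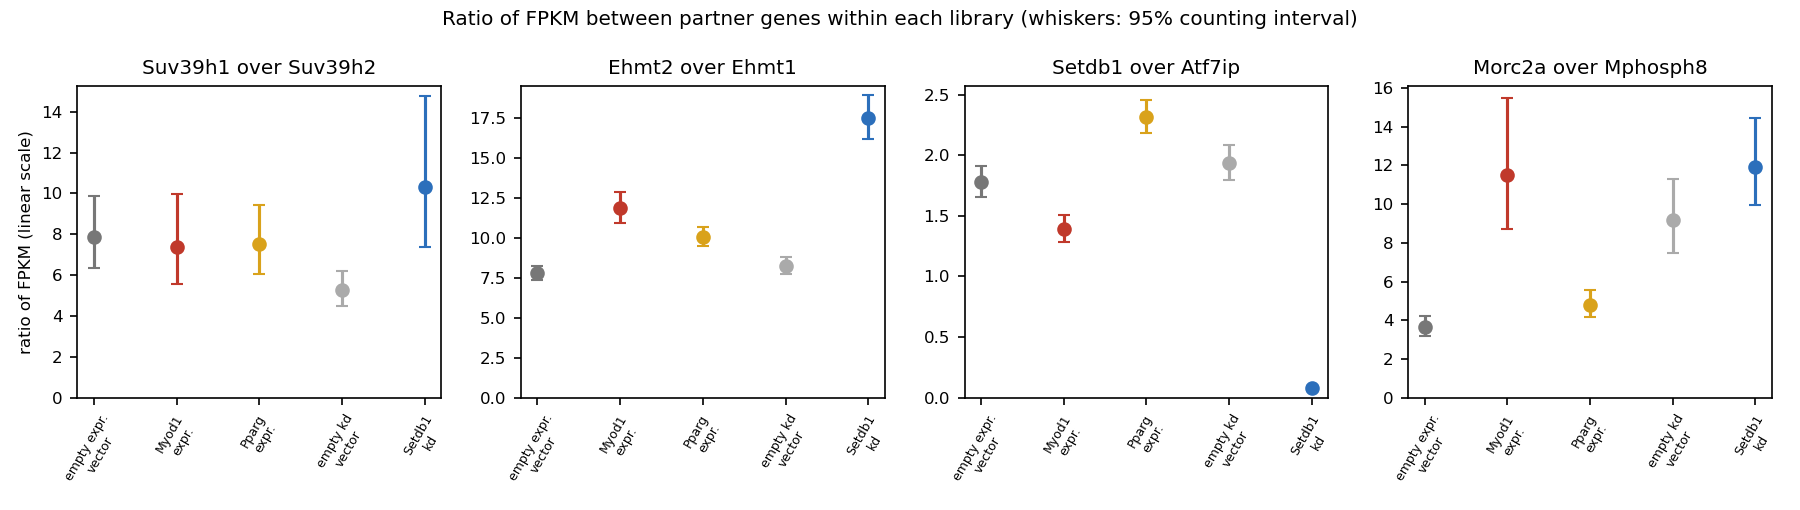
Ratio of FPKM between 2 genes of the same library (linear axis starting at 0, own scale per panel), with a point per library and whiskers for the 95% counting interval. Ehmt2 over Ehmt1 reaches 17.5 and Setdb1 over Atf7ip is 0.0810 in the knockdown library.

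Summed over the 6 methyltransferases, the FPKM was 92.7 with Setdb1 knockdown and 102.6 in its control. It was 119.1 with the empty expression vector, 115.4 with Pparg and 79.6 with Myod1. Ehmt2 made up 65.7% to 87.0% of this sum. The share of Setdb1 was 9.57% in the empty knockdown vector library and 0.936% in the knockdown library.

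Among the partners of SETDB1, Atf7ip had the largest log2 ratio in size with Setdb1 knockdown against its own control. Against the other control that was Mphosph8 (-0.85). Atf7ip (ENSMUSG00000030213, chromosome 6, 136506167 to 136610862) had an FPKM of 10.7 with Setdb1 knockdown, from 4109 reads, and 5.08 in its control, from 1760 reads. It had 5.82 with the empty expression vector, 6.05 with Myod1 and 6.55 with Pparg. The knockdown library stood above all 4 others, which spanned 5.08 to 6.55. The FPKM ratio was 2.11 (1.99 to 2.23) against its own control and 1.84 (1.74 to 1.94) against the other. The log2 ratio of FPKM + 1 was 0.95, just under the limit with the deposited length, and 10.6% of the genes compared stood as high. It was 1.06 with a pseudocount of 0.1 and 1.04 with the GC trend removed. The FPKM ratio of Setdb1 to Atf7ip was 1.93 (1.79 to 2.08) in the empty knockdown vector library and 0.0810 (0.0664 to 0.0979) in the knockdown library.

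Morc2a (ENSMUSG00000034543, chromosome 11, 3649494 to 3690477) had its highest FPKM in the Setdb1 knockdown library too. The value was 22.0 there and 15.7 in the control, 15.0 with the empty expression vector, 14.9 with Pparg and 10.6 with Myod1. The 2 controls and the Pparg library could not be told apart within counting error. The knockdown FPKM ratio was 1.40 (1.31 to 1.49) against its own control and 1.46 (1.37 to 1.56) against the other. Morc2a shares 483 exon bases, 7.52% of its exon length, with Tug1, a long noncoding RNA on the opposite strand. Whether reads were counted by strand is not stated in the sources used here, so reads there may be assigned to neither or either gene. Tug1 had 549 reads in the knockdown library and 656 in its control.

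Mphosph8, the HUSH subunit that binds methylated lysine 9, showed the largest difference between the 2 controls among the 10 genes. Mphosph8 (ENSMUSG00000079184, chromosome 14, 56668248 to 56697430) had an FPKM of 1.84 with Setdb1 knockdown, 1.72 with the empty knockdown vector and 4.11 with the empty expression vector. It had 3.10 with Pparg and 0.922 with Myod1. The Setdb1 knockdown library and its control overlapped, and both were well under the other control. The knockdown FPKM ratio was 1.07 (0.817 to 1.41) against its own control and 0.447 (0.356 to 0.558) against the other.

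Trim28, also known as KAP1, had the highest FPKM of the 10 genes in every library. Trim28 (ENSMUSG00000005566, chromosome 7, 12999114 to 13031035) had an FPKM of 171.2 with Setdb1 knockdown and 211.3 in its control. It had 169.1 with the empty expression vector, 136.5 with Pparg and 120.0 with Myod1. The empty knockdown vector library was the highest, and the knockdown library overlapped the empty expression vector library. The knockdown FPKM ratio was 0.810 (0.792 to 0.830) against its own control and 1.01 (0.988 to 1.04) against the other. The log2 ratio against its own control, -0.30, became -0.75 with the GC trend removed, and its longest transcript had a GC content of 59.6%. Counted against Setdb1, Trim28 was 21.5-fold higher in the empty knockdown vector library and 197.4-fold higher in the knockdown library.

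**Figure D3:**
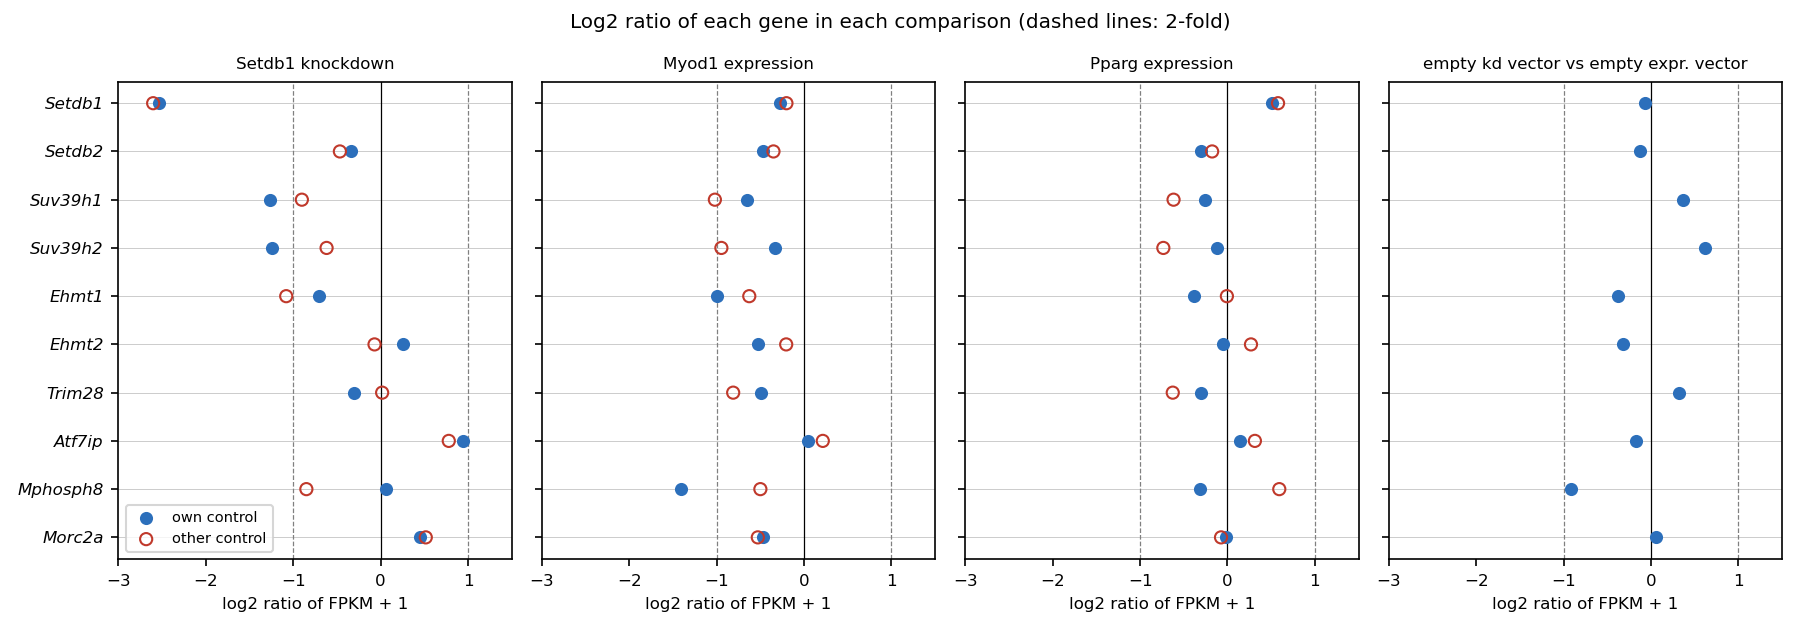
Log2 ratio of FPKM + 1 (horizontal axis) of the 10 genes in 4 comparisons, with filled points for the own control, open circles for the other control library and dashed lines at the 2-fold limit. Setdb1 is past the limit against both controls with its knockdown (-2.53 and -2.60). Suv39h1, Suv39h2, Ehmt1 and Mphosph8 are past it against 1 control only where they pass it.

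Myod1 expression was compared with the empty expression vector. Of the 10 genes 2 were at least 2-fold lower (Ehmt1 and Mphosph8) and 0 higher, where 21.6% of the genes compared passed the limit, 7.55% lower and 14.0% higher. In all, 9 of the 10 had a log2 ratio below 0, and the median was -0.48 against 0.02 for the genes compared. Atf7ip (0.05) was the exception, and it was negative with 3 of the other settings tried, such as division by the column sum (-0.28). That division moved the median of all genes compared to -0.27, and it changed the background to 9.63% higher and 14.8% lower. All 8 melanocyte markers had log2 ratios below 0 in this comparison (median -1.29), and 5 were at least 2-fold lower against both controls, as 4.42% of the genes compared were. The part of this in the values of the 10 genes was not tested.

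Mphosph8 had the lowest log2 ratio of this comparison, -1.41, with 52 reads against 241 and an FPKM ratio of 0.224 (0.163 to 0.304). Of the genes compared 2.62% stood as low. Against the other control the log2 ratio was -0.50. Ehmt1 met the limit by the smallest margin, at -1.001, with an FPKM ratio of 0.453 (0.412 to 0.498), and stood at -0.63 against the other control. Neither gene was past the limit against both controls, where 4.42% of the genes compared were lower in this way. Suv39h1 (-0.66), Ehmt2 (-0.53), Trim28 (-0.49), Setdb2 (-0.47) and Morc2a (-0.47) were lower by less than 2-fold. All 5 were lower against the other control too, where Suv39h1 was past the limit at -1.02.

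Pparg expression was compared with the same empty expression vector library. None of the 10 genes passed the 2-fold limit, where 6.52% of the genes compared did. Here too all 8 melanocyte markers were below 0 (median -1.33), 6 of them at least 2-fold lower against both controls, as 0.849% of the genes compared were. The log2 ratios of the 10 genes ran from -0.38 (Ehmt1) to 0.51 (Setdb1), with a median of -0.18 against -0.02 for the genes compared. Setdb1 and Atf7ip (0.15) were higher and the other 8 lower. The signs of Ehmt2 and Mphosph8 turned against the other control, to 0.27 and 0.59, and Morc2a (-0.01) was positive under 5 other settings.

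The 2 control libraries were compared as the background of the design. None of the 10 genes differed at least 2-fold between them, and 2.67% of the genes compared did. Still, 6 of the 10 differed by a log2 ratio of at least 0.3 in size. The empty knockdown vector library was higher in Suv39h2 (0.62), Suv39h1 (0.36) and Trim28 (0.32). It was lower in Mphosph8 (-0.91), Ehmt1 (-0.37) and Ehmt2 (-0.33). For Mphosph8, 1.92% of the genes compared stood as low, and the FPKM ratio without a pseudocount was 0.418 (0.328 to 0.528). Setdb1 (-0.07) and Morc2a (0.06) were the closest between the controls.

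Levels of different genes can be set side by side only per length. In the empty expression vector library the FPKM was 169.1 for Trim28, 84.7 for Ehmt2, 15.0 for Morc2a, 10.9 for Ehmt1, 10.3 for Setdb1, 9.83 for Suv39h1, 5.82 for Atf7ip, 4.11 for Mphosph8, 2.13 for Setdb2 and 1.25 for Suv39h2. The deposited length of Atf7ip, 20726 bases, is 2.57 times that of its longest coding transcript, 8059 bases, in GENCODE release M21. With reads divided by the longest coding transcript, Atf7ip stood at 15.0 per kilobase and Setdb1 at 15.2. The gap between their levels thus depends on the length used, while the FPKM ratio of a gene between libraries does not. The log2 ratio of FPKM + 1 does depend on it. By the longest coding transcript that of Atf7ip with Setdb1 knockdown was 1.02, past the limit. Suv39h2 shares 357 exon bases with Dclre1c, which had 53 to 135 reads per library, and Setdb1 75 with Cers2, both on the opposite strand. Mphosph8 shares 384, or 10.7% of its exon length, with Gm16973, a noncoding gene on the opposite strand with 9 to 24 reads. Suv39h1 shares 767 with Gm14820, an antisense gene with at most 1 read per library.

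Genes with the profile most like that of Setdb1 over the 5 libraries were Nme4, Tubb4b, Sept8, Tk1 and Adgrl2, with root mean square differences of 0.15 to 0.29 between centred log2 values. Nme4, a nucleoside diphosphate kinase of mitochondria, had an FPKM of 2.86 with Setdb1 knockdown and between 21.4 and 28.7 elsewhere. Tk1, the thymidine kinase of S phase, had 7.17 there and 21.9 to 51.9 elsewhere. The genes most like Suv39h1 were AI506816, Mcmbp and Stt3b (0.04 to 0.07), and Mcmbp binds the replicative helicase. Those most like Suv39h2 were Cab39l, Eif1ax and Zfp280c (all 0.06). Those most like Ehmt1 were Lrp6, Sbno1 and Ccdc186 (all 0.05), and those most like Mphosph8 were Nucb2, Gm13230 and Gm5417 (0.08 to 0.11), of which the last 2 are annotated as pseudogenes. The likeness rests on 5 libraries and has no test.

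Other genes of the pathway came from lists that were chosen with earlier results of these data known. Of 16 genes for HP1 proteins, heterochromatin readers and histone chaperones, all compared, 7 were at least 2-fold lower with Setdb1 knockdown and 0 higher, with a median log2 ratio of -0.91, and 6 were lower against both controls. Among the genes compared these shares were 10.3% lower and 7.56% lower against both. Uhrf1, which links methylated histones to DNA methylation at replication, had an FPKM of 8.79 against 116.4 (-3.58). Hells, a remodelling ATPase, had 0.367 against 6.15 (-2.39), and Cbx3, an HP1 protein, had 2.24 against 13.2 (-2.13). Chaf1a (-1.71) and Chaf1b (-1.61), subunits of the chaperone that places new histones at replication, were lower as well. With Myod1 expression 7 of the 16 were lower and 0 higher (median -0.81), and 5 were lower against both controls, where the shares of the genes compared were 7.55% and 4.42%. Among them were Hells (-1.84) and Atrx (-1.82), the remodeller that deposits histone H3.3. With Pparg expression 0 of the 16 passed the limit (median -0.26), where 6.52% of the genes compared did. Cbx3 has processed pseudogenes, and the handling of reads that match several genes is not given in the sources used here.

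Of 14 genes for the rest of HUSH, further SETDB1 cofactors and the SUMO enzymes that couple TRIM28 to SETDB1, 11 were compared. With Setdb1 knockdown 2 were at least 2-fold lower and 0 higher, with a median of -0.60, or -0.31 against the other control. Among the genes compared 10.3% were lower and 19.7% passed in either direction. Against both controls 1 of the 11 was lower, a share near the 7.56% of all genes. That gene was Sae1, a subunit of the SUMO-activating enzyme, with an FPKM of 48.7 against 115.0 (-1.22). The other was Sumo2 (-1.78), named after its values were seen, which stood at 0.71 against the other control and differed by 2.49 between the controls. Pphln1, the HUSH subunit periphilin, stood at -0.88, or -0.31 against the other control, and differed by 0.56 between the controls. Fam208a, the HUSH subunit now called TASOR, stayed under an FPKM of 1 in all libraries (0.262 to 0.508). Pphln1 and Fam208a were named after their values were seen. With Myod1 expression Uba2, the partner of Sae1, had 14.5 against 33.9 (-1.17). It was the 1 gene of the 11 past the limit, where 21.6% of the genes compared were, 7.55% lower. With Pparg expression Sumo2 (2.01) was the 1 gene past it, where 6.52% of the genes compared were. Sumo2 stood at -0.48 against the other control.

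Of 11 demethylases of lysine 9, 10 were compared. With Setdb1 knockdown Kdm1a was lower, at an FPKM of 8.62 against 21.9 (-1.25, and -1.29 against the other control). Kdm4a was higher, at 39.9 against 15.2 (1.34), but the controls differed in it by -0.87, and it was named after its values were seen. These 2 of 10 compare with 19.7% of all genes compared, a share near theirs. The median was -0.32. With Myod1 and with Pparg expression 0 of the 10 passed the limit, where 21.6% and 6.52% of the genes compared did. The medians were -0.32 and -0.29. Against the other control these medians were -0.07 and 0.08, and between the controls all 10 were below 0 (median -0.28). Of 8 partners of EHMT1 and EHMT2 and related genes, 7 were compared, and Zfp518b was the 1 gene past the limit with Setdb1 knockdown (1.31 against 5.70, -1.54), again a share near the 19.7% of all genes. With Myod1 and Pparg expression 0 of the 7 passed it, where 21.6% and 6.52% of the genes compared did.

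**Figure D4:**
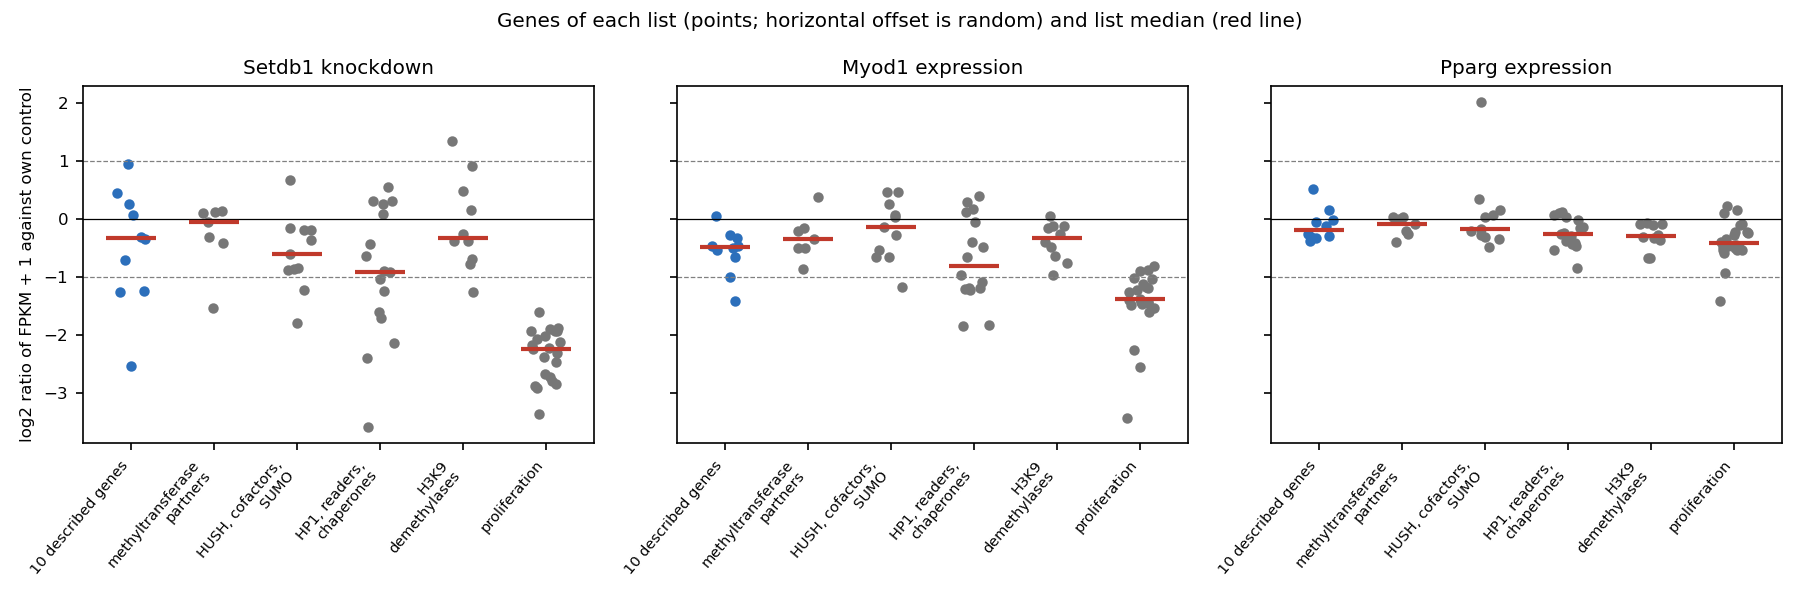
Log2 ratio of FPKM + 1 against the own control (vertical axis) for the genes compared of each list, with a point per gene and a red line at the list median, in 3 comparisons. The proliferation list has its median at -2.23 with Setdb1 knockdown, -1.38 with Myod1 expression and -0.42 with Pparg expression, and the 10 described genes have theirs at -0.32, -0.48 and -0.18.

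Targets were looked at last. Of 16 germline, pluripotency and protocadherin beta genes, several of which are known from other mouse cells to be silenced through SETDB1, 9 were listed at 0 in the knockdown library and 9 in its control. Their summed FPKM was 1.22 with Setdb1 knockdown and 1.47 in the control. Without Pcdhb16 the sum over the other 15 was 0.888 with knockdown and 0.540 in the control, so Pcdhb16 alone set the direction of the sum. Of these 15, 4 had more reads with knockdown than in the control, namely Pcdhb5 (29 against 15), Pcdhb11 (16 against 9), Pcdhb20 (6 against 3) and Ddx4 (6 against 0). Fewer reads were counted for Pcdhb22 (3 against 6) and Pcdhb3 (0 against 2), and Slc25a31 had 1 in each. Read totals differ between the libraries, and all 15 were too low to be compared. Dazl, Mael, Taf7l, Sycp3, Tdrd1, Stk31, Dppa3 and Zfp42 were listed at 0 in all 5 libraries. Pcdhb16 was the 1 gene compared, at an FPKM of 0.331 against 0.927 (-0.53). The genes named from this list were chosen after their values were seen.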

How the data were processed

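The authors deposited 1 table of FPKM values for 5 libraries, and per the submitters' processing notes CASAVA, HISAT2, featureCounts 1.5.0-p3 and GRCm38 were used, in roles not given. Strand, shared reads and RNA selection are not given in the sources used here. Of 54409 gene identifiers shared with GENCODE M21 (GRCm38), 98.3% had the same position.

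FPKM times gene length were whole multiples of 1 step per library for 100% of values above 0 (within 0.01), which gave reads per gene and the authors' divisor, 0.859 to 1.10 times the reads. FPKM were compared as log2(FPKM + 1) differences, which understate changes of low genes. Called means at least 2-fold among genes that reach an FPKM of 1 in some library. Level intervals are Wilson and ratio intervals exact conditional binomial, at 95%; reads are not independent molecules, and these cover counting error only. The scripts were tested on simulated data. The genes and lists were chosen with earlier results of these data known. Named genes are the 10, at most 5 per list and comparison that passed 2-fold against both controls, and those most like Setdb1 (5) or another called gene (3). Cd3e, Pphln1, Fam208a, Sumo2, Kdm4a, the germline, pluripotency and protocadherin genes and the overlapping genes fall outside this rule and were chosen after their values were seen. GC content came from the longest M21 transcript, found for 98.7% of genes compared. Tools were Python 3.11.15, NumPy 2.4.6, pandas 2.3.3 and SciPy 1.17.1.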

Additional observations from a re-analysis of the deposited data

How the results depend on the processing

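Alternatives were a pseudocount of 0.1, no filter, a mean FPKM of at least 1, division by the column sum, scaling to the 75th percentile, centring, the other control, removal of the GC trend, a limit of 1.5-fold and, chosen after seeing the data, scaling to recovered reads and division by the longest coding transcript. Setdb1 with its knockdown ranged from -3.36 (pseudocount of 0.1) to -2.46. The count of genes changed with Setdb1 knockdown, 3, became 5 at the limit of 1.5-fold, where 43.7% of the genes compared passed. It was 2 with the other control (Setdb1 and Ehmt1, without Suv39h1 and Suv39h2), where 19.7% passed. It was 4 with a pseudocount of 0.1 (31.4% passed) or the longest transcript (21.4%), with Atf7ip higher. With the GC trend removed it was 3 (Atf7ip higher, Suv39h2 not called), where 16.1% passed. The count with Myod1 expression, 2, became 1 with the other control, where 22.6% of the genes compared passed. The called gene there was Suv39h1 (-1.02), and Ehmt1 (-0.63) and Mphosph8 (-0.50) were not called. At the limit of 1.5-fold the count with Myod1 expression was 3, all lower, where 43.7% passed. The count between the controls, 0, became 1 with a pseudocount of 0.1 (7.41% passed) and 1 with the GC trend removed (2.59%). It was 2 at the limit of 1.5-fold, where 10.3% passed. The count with Pparg expression stayed at 0 in every setting run, where 1.53% (no filter) to 19.2% (limit of 1.5-fold) of the genes passed. Leaving out the filters, which cannot move a log2 ratio, of 310 values per gene, comparison and setting 238 moved by less than their counting interval and 72 by more, and no called value changed sign. No paired analysis was possible because each group has 1 library. Counting error limits Suv39h2, Mphosph8 and Setdb2 most, with as few as 38, 52 and 80 reads.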
